A study of Mus musculus with 2 samples.

Results

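Toll-like receptors and the transport protein Unc93b1 were read in single dendritic cells (DC) of the mouse spleen. The 10 genes, of 32285 in the count matrices, were taken by symbol: Tlr2, Tlr3, Tlr4, Tlr6, Tlr7, Tlr9, Tlr11, Tlr12, Tlr13 and Unc93b1. All 10 had UMIs (unique molecular identifiers, each standing for a captured transcript) in both libraries, from 97 UMIs of Tlr9 in WT to 30172 of Unc93b1 in H2-Aa cit/cit.

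The study compared C57BL/6J mice with mice homozygous for cit, a chemically induced germline allele that disrupts splicing of H2-Aa and so affects MHC class II in every cell that makes it. Each genotype, H2-Aa +/+ (WT) and H2-Aa cit/cit, was a single library of cells pooled from 3 naive female mice aged 4 months, so no animal can be told from another. Live CD45.2+ CD11c+ spleen cells had been sorted after magnetic selection for CD11c, and the count matrices held 7814 WT cells with 51020804 UMIs and 11525 H2-Aa cit/cit cells with 72652201 UMIs. With 1 library per genotype no difference between genotypes could be tested, and every interval given here is a 95% interval for counting error alone.

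Cells were put into classes by marker genes, none of which was a Toll-like receptor or a gene of its pathway, and levels were given as CPM, the UMIs of a gene per 1000000 UMIs of the class in that library. Unless the libraries are named, a pair of values gives WT first and H2-Aa cit/cit second. The cDC1-like class held 647 and 702 cells and the cDC2-like class 3183 and 6424. Further classes were 1485 and 1106 mature DC-like cells without cDC1 genes, 372 and 65 mature DC-like cells with cDC1 genes, 100 and 99 pDC-like cells, and 97 and 103 Ace+ Fabp4+ monocyte-like cells. cDC2-like cells were further split into Ffar2+ cells (1230 and 2809), Ccr2+ cells (283 and 1047), Wdfy4-rich cells (1032 and 989) and the remaining 638 and 1579. The Wdfy4-rich gate took only cells with under 6% ribosomal protein UMIs. Smaller classes were proliferating cells (209 and 479), Negr1-rich cells (218 and 216), macrophage-like cells (109 and 65, with a median of only 1029 UMIs per cell in each library), transitional DC-like cells (49 and 98), NK-like cells (31 and 24) and neutrophil-like cells (10 and 16), and 1304 and 2128 cells met no gate. Of the 10 genes that led each class by fold, its own markers made up 6 in cDC1-like and macrophage-like cells, 4 in Ffar2+ cells, 3 in Ccr2+, pDC-like and monocyte-like cells, 2 in mature DC-like cells without cDC1 genes, 1 in Wdfy4-rich cells and 0 in mature DC-like cells with cDC1 genes. Because the gates used these markers, the counts describe the classes and do not test their names. As a check of the labels, H2-Aa stood at 5410 CPM over all WT cells and 66.2 CPM over all H2-Aa cit/cit cells. The median depth was 5492 and 5633 UMIs per cell over all cells, and 9078 and 14453 in cDC1-like cells. The libraries shared 31 cell barcodes, of which 2 fell in the same class.

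Toll-like receptors are membrane proteins that bind conserved molecules of microbes and signal through the adaptors Myd88 and Ticam1 to nuclear factor κB and interferon regulatory factors. Tlr2, Tlr4 and Tlr6 act mainly at the cell surface, where Tlr2 pairs with Tlr1 or Tlr6 on bacterial lipoproteins and Tlr4 senses lipopolysaccharide. Tlr3, Tlr7, Tlr9, Tlr11, Tlr12 and Tlr13 act in endosomes and reach them with Unc93b1, a chaperone of the endoplasmic reticulum. Tlr3 binds double-stranded RNA, Tlr7 single-stranded RNA, Tlr9 unmethylated CpG DNA and Tlr13 a stretch of bacterial ribosomal RNA, while Tlr11 and Tlr12 bind profilin of apicomplexan parasites. DC subsets are known to carry different sets of these receptors.

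All 10 genes are protein coding in the GENCODE annotation of GRCm38, the build of the count matrices. Tlr3 lies on chromosome 8 from 45395665 to 45411080 (minus strand) and shares 698 bases with the antisense gene Gm45542. Tlr11 lies on chromosome 14 from 50357914 to 50363663 (plus strand). Tlr12 lies on chromosome 4 from 128615443 to 128618619 (minus strand), the chromosome that also holds Tlr4 (66827584 to 66930284, plus strand). Tlr7 (167304929 to 167330558, minus strand) and Tlr13 (106143204 to 106160493, plus strand) both lie on chromosome X. Tlr2 lies on chromosome 3 (83836272 to 83841767, minus strand), Tlr6 on chromosome 5 (64952031 to 64960097, minus strand), Tlr9 on chromosome 9 (106222598 to 106226883, plus strand) and Unc93b1 on chromosome 19 (3935186 to 3949340, plus strand). No gene overlapped any of the members other than Gm45542, whose reads cannot be told from those of Tlr3 if strand was not used in counting.

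Tlr3, Tlr11 and Tlr12 had most of their UMIs in cDC1-like cells. The 250 bases before the RefSeq start sites (GRCm38.p6) of Tlr11 and Tlr12, which share a ligand and differ in the spread of their transcripts, are printed 5′ to 3′ on the strand of each gene so that both promoters can be set side by side. They are at chr14:50357664-50357913 (plus strand) and chr4:128618620-128618869 (minus strand). The Tlr3 window, which overlaps first exons of other annotated Tlr3 transcripts, is not printed.
Tlr11: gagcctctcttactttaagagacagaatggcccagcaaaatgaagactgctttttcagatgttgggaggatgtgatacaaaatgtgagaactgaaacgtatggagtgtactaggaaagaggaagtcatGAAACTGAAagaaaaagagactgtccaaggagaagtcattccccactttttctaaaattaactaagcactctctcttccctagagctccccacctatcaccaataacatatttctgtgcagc
Tlr12: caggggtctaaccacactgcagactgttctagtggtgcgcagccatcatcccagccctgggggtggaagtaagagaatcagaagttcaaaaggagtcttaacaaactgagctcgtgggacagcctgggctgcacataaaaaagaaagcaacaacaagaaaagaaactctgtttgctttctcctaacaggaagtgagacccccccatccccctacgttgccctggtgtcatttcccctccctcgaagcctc
Capitals mark the only match, on either strand, in the windows of Tlr3, Tlr11 and Tlr12 to the 3 motifs searched: GAAANNGAA, a form of the interferon-stimulated response element (ISRE) bound by interferon regulatory factors, GGAANNGAA, a form of the ETS-IRF element, and TGANTCA, the AP-1 element. The match, in Tlr11, ran from position −122 to position −114 before the start site. Of 32851 RefSeq promoter windows of the same length, 7.13% held the first motif, 6.99% the second and 6.75% the third. Windows were found for 7 of the 10 members (8 windows), and among the others Tlr6 held 2 overlapping matches to the first motif and Tlr9 held 1 to the third.

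Tlr3 was mainly a transcript of cDC1-like cells. There it reached 160 CPM in WT (1158 UMIs, interval 151 to 170), with 155 CPM in H2-Aa cit/cit (1541 UMIs, 148 to 163), against 5.28 and 5.68 CPM in cDC2-like cells. The level in cDC1-like cells was thus 30.3-fold and 27.4-fold higher (log2 4.92, 4.63 to 5.22, and 4.77, 4.57 to 4.98). cDC1-like cells held 84.6% and 81.5% of all Tlr3 UMIs. They were 8.28% and 6.09% of the cells and, with a higher median depth, held 7234376 of 51020804 and 9917706 of 72652201 UMIs of all genes. Macrophage-like cells (21.2 and 17.9 CPM, on 6 and 3 UMIs) and mature DC-like cells with cDC1 genes (10.5 and 20.1 CPM) came next among the classes with at least 50 cells in each library, and their intervals overlapped in each library. Of the smallest classes, neutrophil-like cells held 4 and 0 Tlr3 UMIs, or 76.2 CPM in WT. The 9 cDC1 markers summed to 2707 and 35.06 CPM in neutrophil-like cells and to 611.5 and 793.9 CPM in macrophage-like cells. In cDC1-like cells they summed to 3743 and 2884 CPM. The part of cDC1 transcripts in the Tlr3 of these small classes was not tested. Mature DC-like cells without cDC1 genes held 4 and 3 Tlr3 UMIs, or 0.406 and 0.50 CPM, well under the cDC2-like level.

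Tlr11 was also highest in cDC1-like cells but was spread more widely. It stood at 108 CPM in WT (780 UMIs) against 122 CPM in H2-Aa cit/cit (1208 UMIs), 10.8-fold and 9.31-fold the cDC2-like levels of 9.97 and 13.1 CPM (log2 3.43, 3.21 to 3.66, and 3.22, 3.07 to 3.37). In mature DC-like cells it was lower than in cDC1-like cells, at 28.4 and 49.1 CPM where cDC1 genes were present and 25.1 and 33.2 CPM where they were not. The last pair was 2.51-fold and 2.54-fold the cDC2-like level (log2 1.33, 1.05 to 1.60, and 1.34, 1.10 to 1.58). Tlr11 was the only member higher in mature DC-like cells without cDC1 genes than in cDC2-like cells beyond counting error in both libraries.

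Tlr12, which works with Tlr11 in sensing profilin, was shared by cDC1-like and pDC-like cells. cDC1-like cells had 26.0 and 18.9 CPM (188 and 187 UMIs), and pDC-like cells had 26.7 and 22.3 CPM (28 and 16 UMIs). The difference between these classes was within counting error in both libraries (log2 pDC-like over cDC1-like 0.04, −0.59 to 0.62, and 0.24, −0.60 to 0.98). Macrophage-like cells had 35.3 and 23.9 CPM on 10 and 4 UMIs, which also overlapped both. cDC2-like cells had 1.09 and 0.713 CPM, 23.9-fold and 26.4-fold below cDC1-like cells (log2 4.58, 3.94 to 5.29, and 4.72, 4.15 to 5.34).

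**Figure D1:**
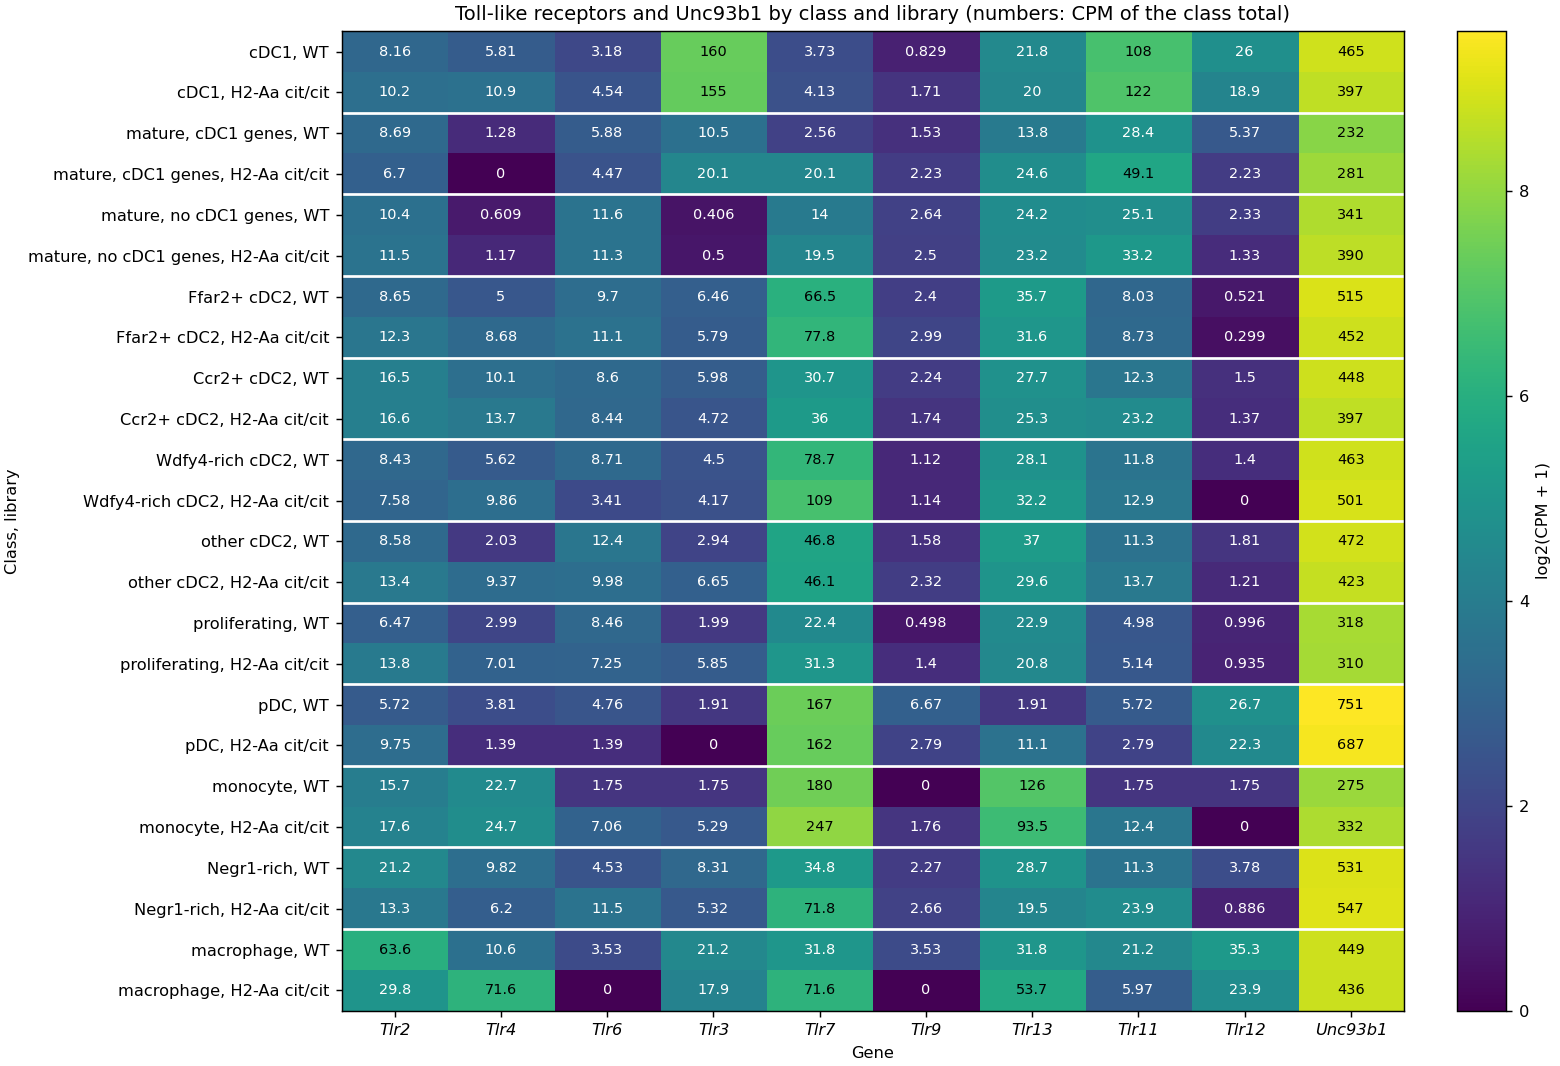
Level of the 10 genes (columns) in 12 cell classes of the WT and H2-Aa cit/cit libraries (rows), with the CPM of the class total written in each cell and coloured as log2(CPM + 1), brighter for higher. Tlr3 and Tlr11 are brightest in cDC1-like cells (160 and 108 CPM in WT), Tlr7 in monocyte-like and pDC-like cells (180 and 167 CPM in WT), and Unc93b1 is bright in every class drawn.

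The share of cells with a Tlr3 transcript was also higher in cDC1-like than in cDC2-like cells. With every cell thinned to 1500 UMIs, Tlr3 was seen in 113 of 629 and 136 of 681 cDC1-like cells, while cDC2-like cells showed it in 0.68% and 0.775% (exact Clopper-Pearson intervals 0.421 to 1.04% and 0.572 to 1.03%). NK-like cells, read as a class outside the DC, had Tlr3 in 0 of 31 and 0 of 20 cells. These counts of 0 allow shares of cells with a UMI of up to 9.68% and 15%. NK-like cells were thus too few to be told from cDC2-like cells at these shares. Before thinning they had median depths of 4429 and 3137 UMIs and held 0 and 1 Tlr3 UMIs. Without thinning the shares of cDC1-like cells were 57.8% and 70.2%. Tlr11 was seen in 12.1% and 16.4% of thinned cDC1-like cells, and Tlr12 in 2.86% and 3.08%. With cells thinned to 3000 UMIs and shallower ones left out, 579 and 652 cDC1-like cells remained. Of these, 50.8% and 47.1% showed none of the 3 receptors, 37.8% and 39.9% showed 1, and 10.4% and 12.3% showed 2. All 3 were seen together in 1.04% and 0.767% of cells.

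Tlr7 had the opposite pattern. It was highest in monocyte-like cells, at 180 CPM (103 UMIs, 147 to 218) and 247 CPM (140 UMIs, 208 to 292), and in pDC-like cells, at 167 CPM (175 UMIs, 143 to 193) and 162 CPM (116 UMIs, 134 to 194). The intervals of these classes overlapped in WT and not in H2-Aa cit/cit. cDC2-like cells had 59.6 and 63.8 CPM, and cDC1-like cells 3.73 and 4.13 CPM (27 and 41 UMIs), 16.0-fold and 15.4-fold below cDC2-like cells (log2 −4.00, −4.60 to −3.45, and −3.95, −4.43 to −3.50). Nearly all Tlr7 UMIs thus lay outside the cDC1 gate, which held 1.40% and 1.13% of them. After thinning to 1500 UMIs, Tlr7 was seen in 22.0% and 28.7% of monocyte-like cells, 15.3% and 21.2% of pDC-like cells, 7.57% and 8.42% of cDC2-like cells, and 0.477% and 0.294% of cDC1-like cells. In NK-like cells it was seen in 0 of 31 and 1 of 20, with 1 Tlr7 UMI in each library before thinning.

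Among cDC2-like cells, Tlr7 was graded. Wdfy4-rich cells had 78.7 and 109 CPM, Ffar2+ cells 66.5 and 77.8 CPM, the remaining cells 46.8 and 46.1 CPM, and Ccr2+ cells 30.7 and 36.0 CPM. Ffar2+ cells, which carry genes of the resting Esam-high population, were 2.17-fold and 2.16-fold above Ccr2+ cells, which carry monocyte-associated genes (log2 1.12, 0.78 to 1.47, and 1.11, 0.93 to 1.30). Wdfy4-rich cells were above Ffar2+ cells by 0.24 (0.03 to 0.45) and 0.49 (0.30 to 0.67) on the log2 scale. The median share of ribosomal protein UMIs in Wdfy4-rich cells was 2.86% and 3.73%, against 16.05% and 17.76% in Ffar2+ cells. The gate fixed this low share, as it took only cells under 6%. CPM is taken of all UMIs, so fewer ribosomal UMIs raise the CPM of other genes, and the part of this in the Tlr7 difference was not tested. Tlr2 and Tlr4, the surface receptors for lipoproteins and lipopolysaccharide, lay the other way between Ffar2+ and Ccr2+ cells. Tlr4 was 10.1 and 13.7 CPM in Ccr2+ cells against 5.0 and 8.68 in Ffar2+ cells (log2 −1.01 and −0.65), and Tlr2 was 16.5 and 16.6 CPM against 8.65 and 12.3 (log2 −0.93 and −0.43), each beyond counting error in both libraries. The direction was not particular to surface receptors. Tlr11, an endosomal receptor, was 12.3 and 23.2 CPM in Ccr2+ cells against 8.03 and 8.73 CPM in Ffar2+ cells. Of all genes with enough UMIs, 7.36% were past 2-fold the same way in both libraries between Ffar2+ and Ccr2+ cells, and of the 9 members with enough UMIs 1, Tlr7, was. When classes were taken from clusters, the Tlr7 difference was under 2-fold in both libraries (log2 0.97 and 0.89), and with a stricter gate it was 2.63 and 3.00.

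Tlr13 and Tlr4, like Tlr7, were high in monocyte-like cells. Tlr13 reached 126 and 93.5 CPM there (72 and 53 UMIs), 3.75-fold and 3.13-fold the cDC2-like levels of 33.6 and 29.9 CPM (log2 1.91, 1.54 to 2.26, and 1.64, 1.22 to 2.04). It was present in cDC1-like cells at 21.8 and 19.96 CPM and, among the 12 classes with at least 50 cells in each library, lowest in pDC-like cells, at 1.91 CPM on 2 UMIs and 11.1 CPM on 8 UMIs. Tlr4 was 22.7 and 24.7 CPM in monocyte-like cells (13 and 14 UMIs), above the cDC2-like 5.14 and 9.91 CPM by 2.15 (1.19 to 2.98) and 1.32 (0.43 to 2.08) on the log2 scale. Macrophage-like cells held 3 and 12 Tlr4 UMIs, or 10.6 and 71.6 CPM. Mature DC-like cells were poor in Tlr4, with 6 and 7 UMIs in those without cDC1 genes (0.609 and 1.17 CPM) and 5 and 0 UMIs in those with them.

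Tlr2, Tlr6 and Tlr9 had low levels and few differences between DC classes. Tlr2 was highest in macrophage-like cells (63.6 and 29.8 CPM, on 18 and 5 UMIs) and lay between 8.16 and 13.1 CPM in cDC1-like and cDC2-like cells of both libraries. Tlr6 was 9.97 and 9.79 CPM in cDC2-like cells and 3.18 and 4.54 CPM in cDC1-like cells, 3.14-fold and 2.16-fold lower (log2 −1.65, −2.34 to −1.02, and −1.11, −1.59 to −0.66). In mature DC-like cells without cDC1 genes Tlr6 kept 11.6 and 11.3 CPM. Tlr9, a receptor that pDC are known for, had 97 and 167 UMIs in all and no more than 7.83 CPM in any class. pDC-like cells held 7 and 2 of them (6.67 CPM, 2.68 to 13.7, and 2.79 CPM, 0.337 to 10.1), and transitional DC-like cells 1 and 7. cDC2-like cells had 1.98 and 2.46 CPM (40 and 100 UMIs) and cDC1-like cells 0.829 and 1.71 CPM (6 and 17 UMIs). Among the 12 classes with at least 50 cells in each library, pDC-like cells were highest in WT. In H2-Aa cit/cit the Ffar2+ cells were highest, at 2.99 CPM. With so few UMIs the place of pDC-like cells for Tlr9 was not settled.

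**Figure D2:**
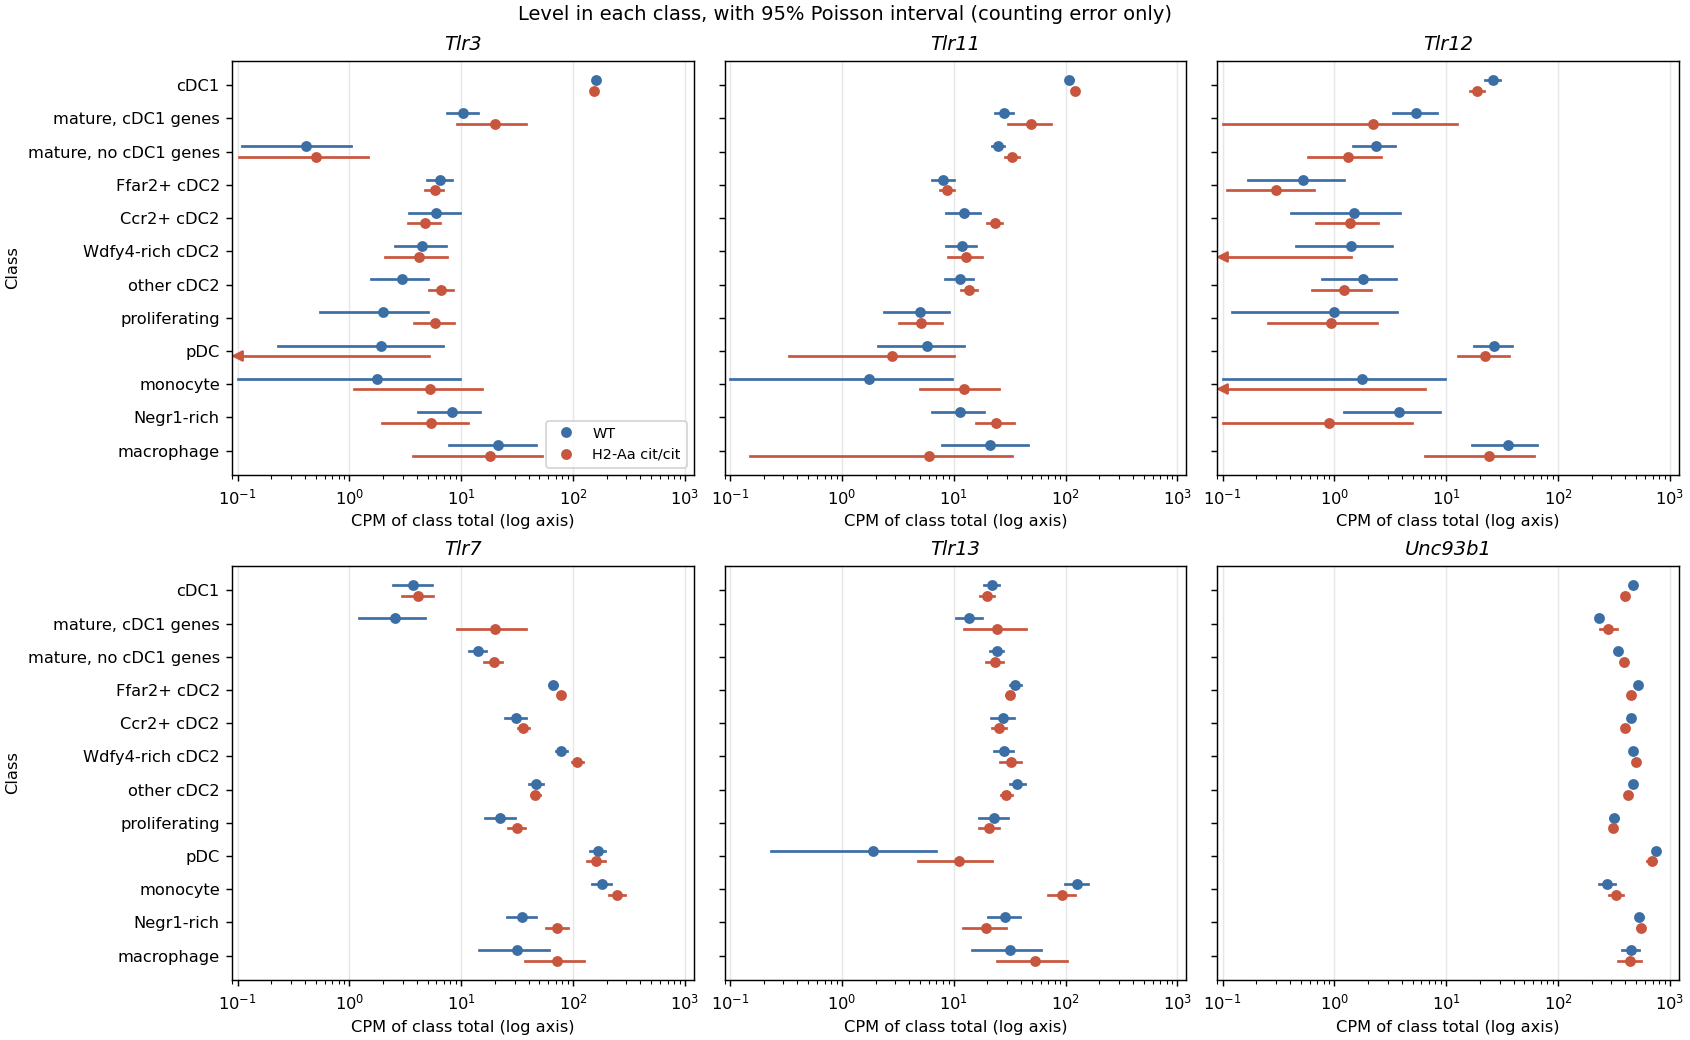
CPM of Tlr3, Tlr11, Tlr12, Tlr7, Tlr13 and Unc93b1 in 12 cell classes on a log axis, with 1 point per library (blue WT, red H2-Aa cit/cit), exact Poisson 95% intervals for counting error only, and a triangle at the left edge for a class with 0 UMIs. The libraries lie close together for Tlr3 in cDC1-like cells (160 and 155 CPM), far to the right of the Ffar2+ cDC2-like cells (6.46 and 5.79 CPM).

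Unc93b1, which the endosomal receptors need to leave the endoplasmic reticulum, was broadly present. It was highest in pDC-like cells, at 751 and 687 CPM (788 and 493 UMIs), 1.54-fold and 1.57-fold the cDC2-like levels of 487 and 437 CPM (log2 0.62, 0.52 to 0.73, and 0.65, 0.52 to 0.78). cDC1-like cells had 465 and 397 CPM, so that a 30.3-fold range of Tlr3 between cDC1-like and cDC2-like cells of WT went with a 1.05-fold range of Unc93b1. Mature DC-like cells without cDC1 genes had 341 and 390 CPM, and those with cDC1 genes 232 and 281 CPM. The lowest levels were in NK-like cells, at 39.1 and 78.8 CPM on 7 and 9 UMIs. After thinning, Unc93b1 was seen in 49.1% and 47.8% of cDC2-like cells, 45.6% and 44.2% of cDC1-like cells, 66.3% and 63.6% of pDC-like cells, and 0 of 31 and 3 of 20 NK-like cells.

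Mature DC, which carry Ccr7, the chemokine receptor that guides them to T cell zones, were compared with resting cells. Against cDC2-like cells, mature DC-like cells without cDC1 genes were lower in Tlr3 (log2 −3.70 and −3.51), Tlr4 (−3.08 and −3.09) and Tlr7 (−2.09 and −1.71), each past 2-fold and beyond counting error in both libraries, and higher in Tlr11 as given above. Tlr7 was 14.0 and 19.5 CPM there, 4.26-fold and 3.27-fold below cDC2-like cells. Tlr13 (−0.47 and −0.37) and Unc93b1 (−0.51 and −0.16) were lower by less than 2-fold. Of all genes with enough UMIs, 23.5% were past 2-fold the same way in both libraries between these classes, and of the 10 members 4 were. Tlr3 and Tlr4 are among the last, though the mature cells held only 4 and 3 UMIs of Tlr3 and 6 and 7 of Tlr4. Both reached 20 UMIs in each library only through cDC2-like cells. Cells with cDC1 genes had been gated out of this mature class, which can lower Tlr3 there, and this was not tested.

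The same comparison within the cDC1 lineage rested on few H2-Aa cit/cit cells. From cDC1-like cells to mature DC-like cells with cDC1 genes, Tlr3 went from 160 to 10.5 CPM and from 155 to 20.1 CPM, the latter on 9 UMIs (log2 −3.93, −4.42 to −3.48, and −2.95, −4.08 to −2.02). Tlr11 went from 108 to 28.4 CPM and from 122 to 49.1 CPM (log2 −1.93 and −1.31), Tlr12 from 26.0 to 5.37 CPM and from 18.9 to 2.23 CPM, the last on 1 UMI, and Unc93b1 from 465 to 232 CPM and from 397 to 281 CPM (log2 −1.01 and −0.50). All 4 were lower in the mature cells beyond counting error in both libraries. The size of these differences depended on the class borders. For Tlr3, with classes from clusters it was −3.41 and −1.15, and in WT it was −5.03 with a stricter gate and −5.58 without the highest doublet scores. In H2-Aa cit/cit, Tlr3 and Tlr12 had no ratio with the stricter gate or without the highest doublet scores. No UMI of either gene was left in the mature cells there, so their H2-Aa cit/cit levels rest on cells that these filters leave out. In H2-Aa cit/cit the ratios of Tlr11 ran from −2.82 with the stricter gate to −1.31, those of Tlr12 from −4.32 with means over cells to −1.48 with classes from clusters, and those of Unc93b1 from −0.93 without the highest doublet scores to −0.50.

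Between cDC1-like and cDC2-like cells, 21.1% of all genes with enough UMIs were past 2-fold the same way in both libraries, and 5 of the 10 members were: Tlr3, Tlr11 and Tlr12 higher and Tlr6 and Tlr7 lower in cDC1-like cells. With the mean over cells in place of summed UMIs, the Tlr6 difference was under 2-fold in H2-Aa cit/cit (log2 −0.71). Markers of the other class were low in each. The gates used these same markers, so their shares are no yardstick for the receptors, which were not used in gating. The 9 cDC1 markers summed to 3743 and 2884 CPM in cDC1-like cells and to 1.89% and 2.32% of that in cDC2-like cells, with none of the 9 at 0. Tlr3 in cDC2-like cells was 3.30% and 3.66% of its cDC1-like level, Tlr12 4.18% and 3.78%, and Tlr11 9.25% and 10.7%. The 8 cDC2 markers stood in cDC1-like cells at 8.34% and 9.74% of their cDC2-like sum, above the 6.26% and 6.48% of Tlr7. The source of these low levels was not tested.

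The makeup of the receptor transcripts differed between classes. UMIs of the 9 receptors were counted at transcript 3′ ends and were not divided by length, and capture can differ between genes, so shares are compared between classes and not between genes. Tlr2, Tlr4 and Tlr6, the surface receptors among the 9, made up 5.08% (4.24 to 6.03%) of the 9 receptors' UMIs in WT cDC1-like cells, with 7.37% (6.52 to 8.29%) in the other library. They made up 18.2% and 22.1% in cDC2-like cells, 30.4% and 29.5% in Ccr2+ cells, 24.8% and 23.0% in mature DC-like cells without cDC1 genes, and 34.9% and 37.0% in macrophage-like cells. pDC-like cells had 6.38% and 5.88%, and mature DC-like cells with cDC1 genes 20.3% and 8.62%. Tlr1, the other surface partner of Tlr2, and Tlr5 and Tlr8 are not among the 9. Tlr1 alone had 8.57 and 8.17 CPM in cDC1-like cells and 53.0 and 53.4 CPM in cDC2-like cells. In mature DC-like cells without cDC1 genes it had 91.3 and 96.3 CPM. The shares thus describe these 9 genes and not all surface receptors. The 9 receptors together reached 337 and 348 CPM in cDC1-like cells, 136 and 149 CPM in cDC2-like cells, and 91.3 and 104 CPM in mature DC-like cells without cDC1 genes. A share falls where the other receptors are high and rises where they are low, so it is not a level. In cDC1-like cells Tlr2 had 8.16 and 10.2 CPM, Tlr4 5.81 and 10.9 CPM, and Tlr6 3.18 and 4.54 CPM. In cDC2-like cells these were 9.63 and 13.1 CPM, 5.14 and 9.91 CPM, and 9.97 and 9.79 CPM. Tlr4 was thus not lower in cDC1-like cells. The higher share in these mature cells than in cDC2-like cells went with a lower total of the 9 receptors.

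**Figure D3:**
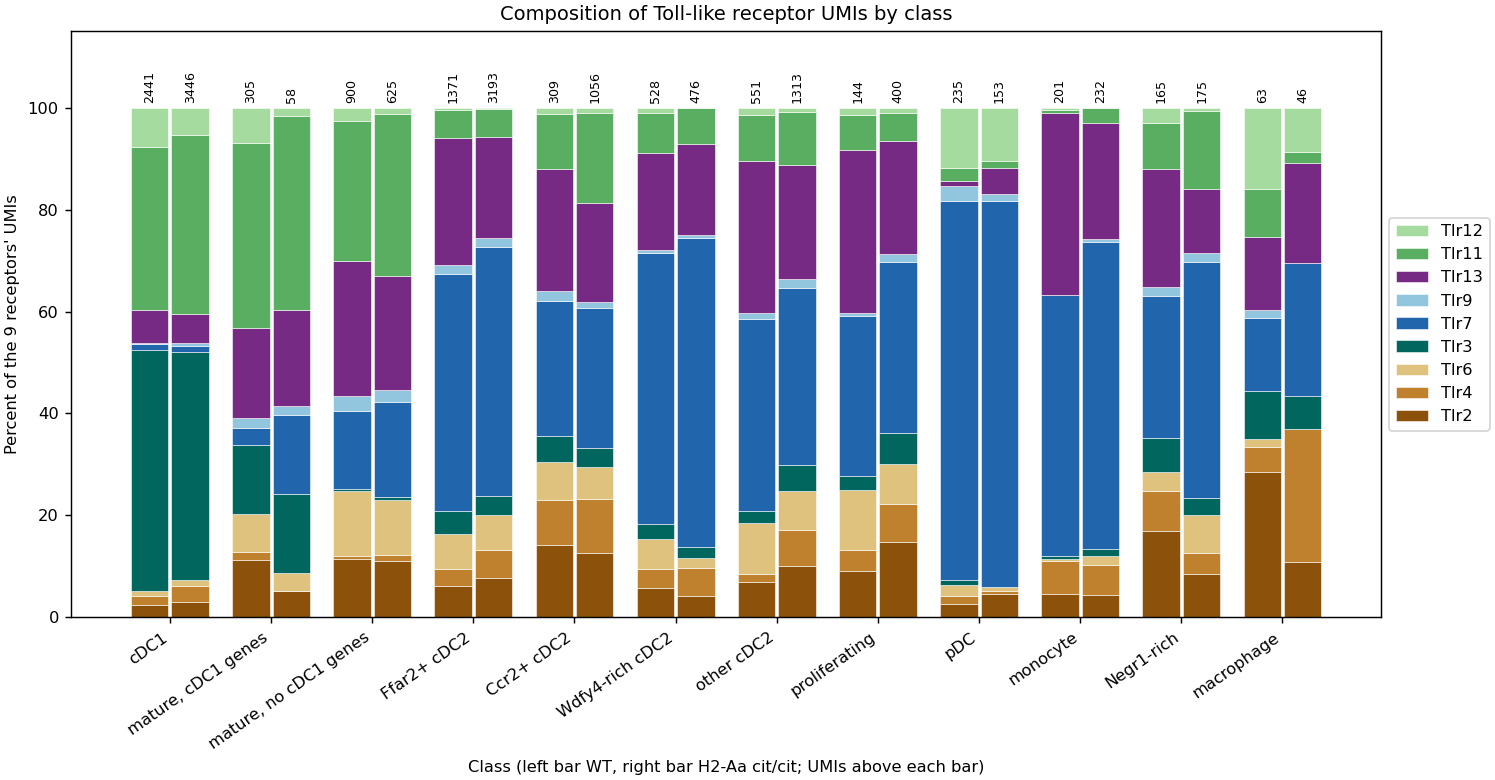
Share of each receptor among the UMIs of the 9 receptors, as stacked bars from 0 to 100% for 12 cell classes (left bar WT, right bar H2-Aa cit/cit, total UMIs above each bar). Tlr3 and Tlr11 fill most of the cDC1-like bars and Tlr7 most of the pDC-like bars, while Tlr2, Tlr4 and Tlr6 together are 5.08% in WT cDC1-like cells and 30.4% in WT Ccr2+ cells.

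Genes with the most similar pattern were sought over 24 points, the 12 classes with at least 50 cells in each library, among 5789 genes. For Tlr3 they were Ppt1 (Pearson r = 0.959 of log2 CPM + 5), a lysosomal thioesterase, Rab7b (0.938), a small GTPase of endosomes, and Fuca1 (0.926), a lysosomal fucosidase. For Tlr7 they were Lair1 (0.924), a collagen receptor that is also a transitional DC marker here, Slc15a4 (0.918), a lysosomal transporter that Tlr7 and Tlr9 responses depend on, and Mef2d (0.907), a transcription factor. For Tlr12 they were P2ry14 (0.888), a receptor for UDP sugars, Cd38 (0.839), an ectoenzyme, and Irf8 (0.825), the transcription factor needed for cDC1. The top genes for Tlr13 were Ppp3r1 (0.889), Flna and Hes1, for Tlr4 AB124611 (0.857), Lipa and Hpgd, and for Unc93b1 Wars2 (0.86), Snx29 and mt-Nd5. Tlr11 (Gm36723, 0.828), Tlr9 (Foxr1, 0.742) and Tlr6 (Rem1, 0.716) had weaker likenesses. Among the members themselves, Tlr3 and Tlr11 were most alike (0.746) and Tlr7 and Tlr11 least (−0.744). These points share 2 libraries and some classes share markers, so the r values describe these data and carry no p.

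Between genotypes, Tlr4 was the member with the clearest difference. In cDC2-like cells it stood at 5.14 CPM in WT (104 UMIs) against 9.91 CPM in H2-Aa cit/cit (403 UMIs), or 1.93-fold (log2 0.95, 0.63 to 1.27). In cDC1-like cells it went from 5.81 to 10.9 CPM (42 and 108 UMIs), or 1.88-fold (log2 0.91, 0.38 to 1.46). All 4 cDC2-like subsets had the higher level in H2-Aa cit/cit: 2.03 against 9.37 CPM in the remaining cells, 5.0 against 8.68 in Ffar2+ cells, 5.62 against 9.86 in Wdfy4-rich cells and 10.1 against 13.7 in Ccr2+ cells, with intervals that left out 0 in the first 2 of these. After thinning, Tlr4 was seen in 0.841% (0.55 to 1.23%) and 1.47% (1.19 to 1.80%) of cDC2-like cells and in 0 of 31 and 0 of 20 NK-like cells. So few NK-like cells cannot be told from cDC2-like cells at shares this low. Before thinning, NK-like cells held 1 and 0 Tlr4 UMIs. The cDC1-like difference was under 1.5-fold with a stricter gate (log2 0.45), while the cDC2-like difference lay between 0.90 and 1.05 under every alternative run.

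Markers of other cell types were read beside the Tlr4 difference. In cDC2-like cells the 6 Ace+ Fabp4+ monocyte markers summed to 100.6 and 111 CPM, the 8 macrophage markers to 22.2 and 15.5 CPM, and the 5 classical monocyte markers to 2.91 and 5.36 CPM. The classical monocyte markers were thus low but higher in H2-Aa cit/cit, with 1 of the 5 at 0 in WT and 0 of the 5 in H2-Aa cit/cit. The 7 Ccr2+ cDC2 markers summed to 1074 and 1300 CPM, the 8 mature DC markers to 217.5 and 129.9 CPM, and the 10 neutrophil markers to 3.46 and 13.2 CPM, with 3 of the last at 0 in WT. The median ribosomal share of cDC2-like cells was 12.7% and 17.6%. In cDC1-like cells the macrophage markers summed to 35.7 and 73.1 CPM, the monocyte markers to 168 and 113 CPM, and the mature DC markers to 437 and 65.2 CPM, and the median depth was 9078 and 14453 UMIs. There too the 5 plasma cell markers summed to 3.18 and 128 CPM, with 2 of them at 0 in each library, and the 4 erythroid markers to 69.9 and 2.42 CPM. The part of these in the differences between genotypes was not tested.

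The other surface receptors among the members moved less in cDC2-like and cDC1-like cells. Tlr2 in cDC2-like cells was 9.63 and 13.1 CPM (log2 0.45, 0.21 to 0.69), and in cDC1-like cells 8.16 and 10.2 CPM (0.32, −0.16 to 0.81). Tlr6 was 9.97 and 9.79 CPM in cDC2-like cells (−0.03, −0.27 to 0.22). Of the 12 classes, Tlr6 had an interval that left out 0 only in Wdfy4-rich cells, at 8.71 and 3.41 CPM on 31 and 9 UMIs (−1.35, −2.61 to −0.25). Tlr2 was thus higher in H2-Aa cit/cit beyond counting error and within 1.5-fold in cDC2-like cells.

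Of the profilin receptors, Tlr12 was lower in H2-Aa cit/cit over all cells and in cDC1-like cells, and Tlr11 was higher in 5 of 12 classes, with an interval that included 0 in the other 7. Tlr12 over all cells went from 6.06 to 3.69 CPM (309 and 268 UMIs, log2 −0.72, −0.96 to −0.47), and within cDC1-like cells from 26.0 to 18.9 CPM (−0.46, −0.76 to −0.16). The 7 pDC markers, of cells that also carry Tlr12, summed to 167 and 56.5 CPM in cDC1-like cells, 2.33% and 0.919% of their level in pDC-like cells, and their part in the Tlr12 difference was not tested. Over all cells, cDC1-like cells were 8.28% and 6.09% and mature DC-like cells with cDC1 genes 4.76% and 0.564% of the library. The CPM over all cells weights a class by its UMIs and not by its cells. cDC1-like cells held 7234376 of 51020804 and 9917706 of 72652201 UMIs. Mature DC-like cells with cDC1 genes held 3912023 and 447667 UMIs. The part of this makeup in the all-cell Tlr12 difference was not tested. Tlr11 over all cells was 28.2 and 29.5 CPM (0.06, −0.03 to 0.16). It went from 108 to 122 CPM in cDC1-like cells (0.18, 0.04 to 0.31), from 9.97 to 13.1 CPM in cDC2-like cells (0.39, 0.16 to 0.63) and from 25.1 to 33.2 CPM in mature DC-like cells without cDC1 genes (0.40, 0.13 to 0.68). Among the cDC2-like subsets only Ccr2+ cells had a Tlr11 interval that left out 0, at 12.3 and 23.2 CPM (0.91, 0.37 to 1.49). With classes from clusters the cDC1-like Tlr11 ratio was −0.029.

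The nucleic acid receptors differed by less than 1.5-fold between genotypes in the classes where each had most of its UMIs. Tlr3 in cDC1-like cells was 160 and 155 CPM (log2 −0.04, −0.15 to 0.07). Tlr7 was 167 and 162 CPM in pDC-like cells (−0.05, −0.40 to 0.30), 59.6 and 63.8 CPM in cDC2-like cells (0.10, −0.00 to 0.20) and 180 and 247 CPM in monocyte-like cells (0.46, 0.08 to 0.84). Over the 12 classes, the Tlr7 interval lay above 0 in 6 and included 0 in 6. Over all cells Tlr7 went from 37.8 to 49.9 CPM (0.40, 0.32 to 0.48), while cDC2-like cells, which carry it, were 40.7% of the WT and 55.7% of the H2-Aa cit/cit library. Tlr13 was 33.6 and 29.9 CPM in cDC2-like cells (−0.17, −0.30 to −0.03), and Tlr9 had 40 and 100 UMIs there (0.32, −0.23 to 0.88).

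Unc93b1 was lower in H2-Aa cit/cit in cDC1-like and cDC2-like cells and higher in mature cells, by small amounts. It went from 487 to 437 CPM in cDC2-like cells (log2 −0.16, −0.19 to −0.12), from 465 to 397 CPM in cDC1-like cells (−0.23, −0.30 to −0.16) and from 341 to 390 CPM in mature DC-like cells without cDC1 genes (0.19, 0.12 to 0.27). Of the cDC2-like subsets, the Wdfy4-rich cells went the other way (463 and 501 CPM, 0.11, 0.01 to 0.22). The first 3 intervals rest on 2342 or more UMIs in each library, and none of them holds the spread between mice. The median over all genes was −0.07 in cDC2-like cells, −0.03 in cDC1-like cells and 0.03 in the mature cells.

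**Figure D4:**
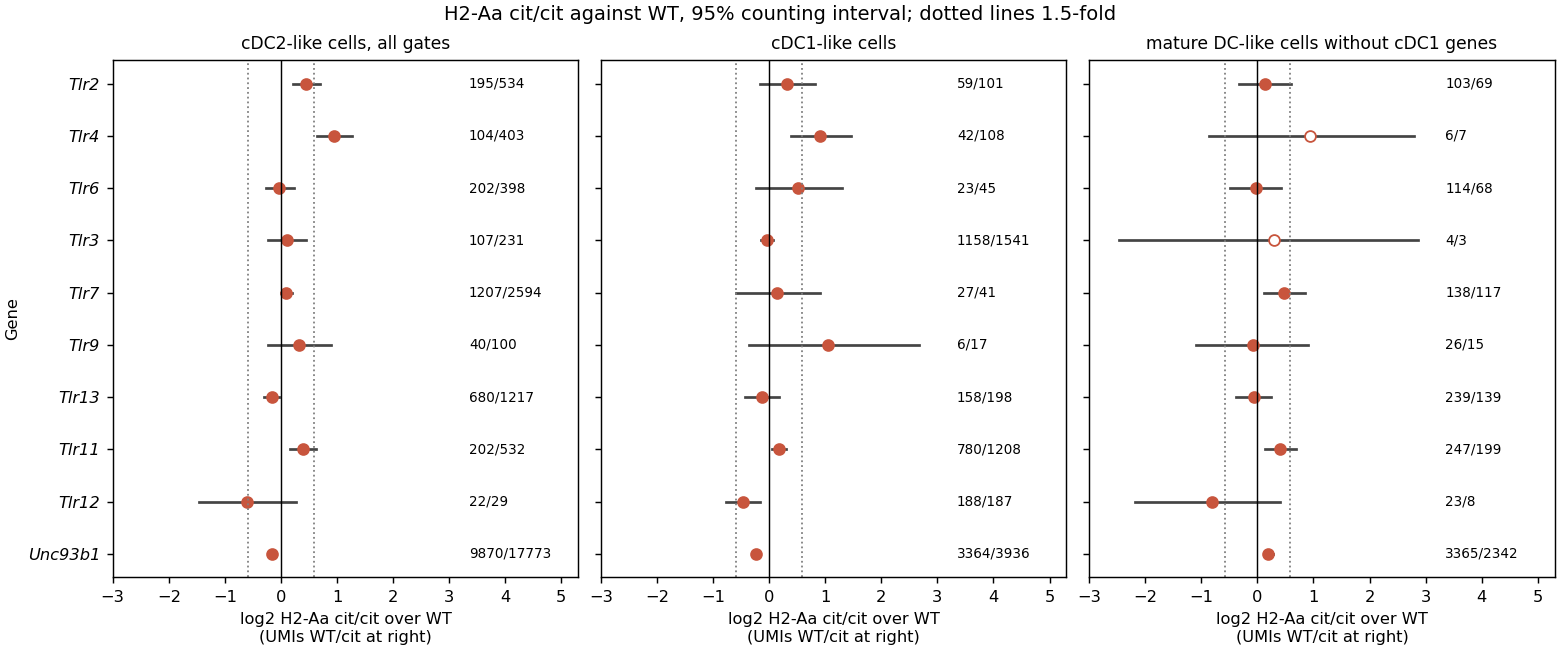
Log2 ratio of H2-Aa cit/cit over WT for each gene in cDC2-like cells, cDC1-like cells and mature DC-like cells without cDC1 genes, with 95% intervals for counting error only, dotted lines at 1.5-fold, the UMIs of each library at the right, and open points for genes under 20 UMIs. Tlr4 lies to the right of 0 in cDC2-like and cDC1-like cells (0.95 and 0.91), Tlr12 to the left in cDC1-like cells (−0.46), and Tlr3 in cDC1-like cells sits at −0.04.

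Read against all genes, the members did not stand out by number. Past 1.5-fold with at least 20 UMIs over both libraries were 21.3% of genes over all cells, 15.1% in cDC2-like cells, 20.5% in cDC1-like cells and 15.3% in mature DC-like cells without cDC1 genes. Of the members, 2 of 10 were past it over all cells (Tlr4 higher, Tlr12 lower), 2 of 10 in cDC2-like cells (Tlr4 higher, and Tlr12 lower on 22 and 29 UMIs, with an interval that included 0), 2 of 10 in cDC1-like cells (Tlr4 and Tlr9 higher, the latter on 6 and 17 UMIs with an interval that included 0) and 1 of 8 in the mature cells (Tlr12 lower on 23 and 8 UMIs, with an interval that included 0). The median log2 ratio of the members was 0.10 in cDC2-like cells, 0.16 in cDC1-like cells and 0.05 in the mature cells. Shares near those of all genes are no result about the members. The Tlr12 difference in cDC2-like cells was within 1.5-fold when scaled by the median ratio (−0.53), and that in the mature cells when cells of low ribosomal share were left out (−0.39).

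The 62 other genes of the pathway were read the same way. In cDC2-like cells 59 had enough UMIs, and 3 were past 1.5-fold, all higher in H2-Aa cit/cit: Hsp90b1 (138 to 454 CPM, log2 1.72, 1.66 to 1.78), the chaperone that folds Toll-like receptors among many other clients, Irf7 (28.8 to 55.0 CPM, 0.93, 0.80 to 1.07), the factor that drives type I interferon genes, and Ticam1 (8.89 to 13.6 CPM, 0.61, 0.37 to 0.86), the adaptor of Tlr3 and Tlr4. The median of the 59 genes was −0.03. Among all genes in cDC2-like cells 15.1% were past 1.5-fold, so the 3 pathway genes are no excess over that share. Ticam1 was under 1.5-fold with classes from clusters (0.55) and with cells of low ribosomal share left out (0.47). A cluster of 783 cells, named Ffar2+ by its markers, came from the H2-Aa cit/cit library alone, and without it, an alternative chosen after seeing the data, Hsp90b1 was 1.24, Ticam1 0.53 and Tlr4 0.96.

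In cDC1-like cells 56 pathway genes had enough UMIs, 4 were past 1.5-fold higher and 3 lower, with a median of −0.04. Among all genes in cDC1-like cells 20.5% were past 1.5-fold, so these numbers are no excess over that share. Hsp90b1 went from 522 to 2440 CPM (log2 2.22, 2.18 to 2.27). Ctsl, a protease that cleaves endosomal receptors, went from 2.90 to 9.38 CPM (1.69), Ticam2, the bridge from Tlr4 to Ticam1, from 1.52 to 4.44 CPM (1.54), and Socs1, a feedback inhibitor, from 10.6 to 23.8 CPM (1.16). Those lower were Rnaset2a (21.0 to 13.8 CPM) and Rnaset2b (28.5 to 17.8 CPM), near-identical ribonuclease genes whose split of reads is uncertain, and Sarm1 on 12 and 8 UMIs, with an interval that included 0. Irf7 was 46.7 and 45.8 CPM in cDC1-like cells (−0.03, −0.24 to 0.18). In cDC1-like cells Ctsl and the macrophage markers were both higher in H2-Aa cit/cit, and the part of the latter was not tested. In mature DC-like cells without cDC1 genes 57 had enough UMIs, of which 6 were past 1.5-fold higher and 2 lower. Among all genes there 15.3% were past it, so these numbers too are no result about the pathway.

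The pathway genes were also compared between classes. Of 59 genes, 3 were past 2-fold higher in cDC1-like than in cDC2-like cells in both libraries: Cd36, a co-receptor of Tlr2 and Tlr6 (267 and 216 CPM against 2.67 and 2.90), Irf8 (1414 and 1544 CPM against 24.1 and 29.0) and Hsp90b1. The 3 higher and 11 lower genes stood beside 21.1% past 2-fold among all genes, so their number is no result about the pathway. The 11 lower ones included the receptors Tlr1 (8.57 and 8.17 CPM against 53.0 and 53.4), Tlr5 and Tlr8, and Slc15a4 (15.8 and 20.2 CPM against 66.1 and 66.8). Tlr1, the other partner of Tlr2, thus had the same direction as Tlr6. In mature DC-like cells without cDC1 genes, 8 pathway genes were past 2-fold above cDC2-like cells, among them Ly96, the partner of Tlr4 (66.2 and 56.8 CPM against 11.7 and 12.96), while 5 were below, among them Myd88 (9.03 and 13 CPM against 28.3 and 40.3) and Cd14, beside 23.5% past 2-fold among all genes. Tlr4 and its partner Ly96 therefore lay on opposite sides. The genes with the most UMIs in their roles differed less between genotypes. In cDC2-like cells Ly86, the partner of Cd180, had 518 and 566 CPM, the protease Ctss 847 and 822 CPM, the nuclease Pld4 181 and 216 CPM, the adaptor Pik3ap1 284 and 241 CPM, the ubiquitin ligase Peli1 298 and 261 CPM, the factor Nfkb1 750 and 660.2 CPM, and its inhibitor Nfkbia 351 and 287 CPM. In mature DC-like cells without cDC1 genes Pld4 was past 1.5-fold, at 123 and 197 CPM (0.67, 0.56 to 0.79).

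**Figure D5:**
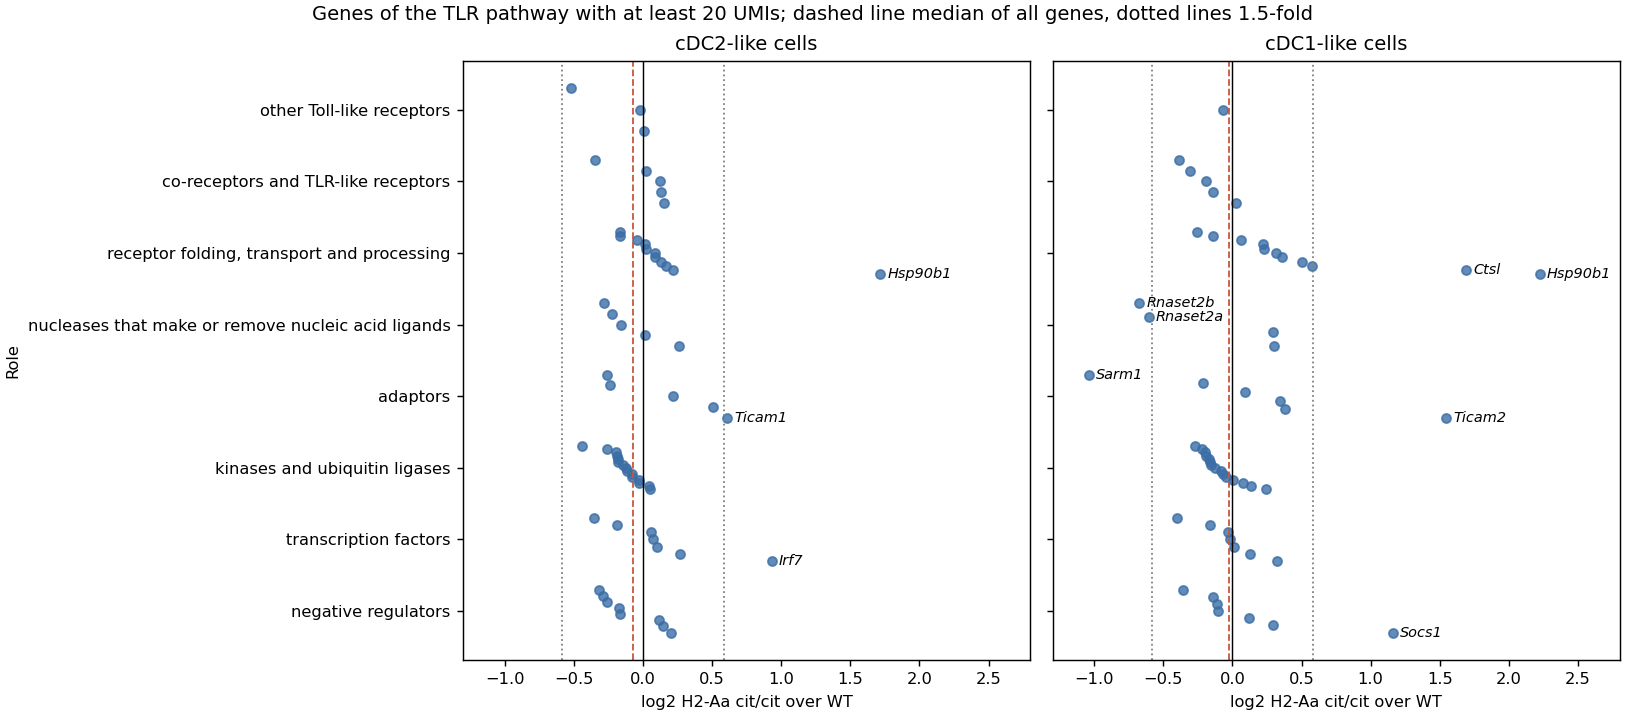
Log2 ratio of H2-Aa cit/cit over WT for the genes of the Toll-like receptor pathway list with at least 20 UMIs, 1 point per gene and grouped by role, in cDC2-like (left) and cDC1-like cells (right), with dotted lines at 1.5-fold and a dashed line at the median of all genes. Most points lie near 0 (medians of the list −0.03 and −0.04), and Hsp90b1 is farthest to the right (1.72 and 2.22).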

How the data were processed

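Single-cell libraries were prepared by the authors with a droplet 3′ kit and processed, per the labels, with Cell Ranger 5.0.1 on mm10 and with Seurat. The deposited matrices hold raw UMI counts per gene and cell, with at least 500 UMIs in every cell. Whether introns or strand were counted is not given in the sources used here. The labels give an age of 4 months, and the study's methods give a younger range for its mice in general.

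Cells were gated by UMIs per 10000 of marker lists, with no mitochondrial limit and doublets kept. Wdfy4-rich cells also had to have under 6% ribosomal protein UMIs. UMIs were summed per class and library, scaled to CPM, and given with exact Poisson intervals. Ratios have exact conditional binomial intervals. Shares have exact Clopper-Pearson intervals after thinning to 1500 UMIs, with shallower cells left out. All intervals are at 95% and cover counting error only. UMIs remove amplification copies, but 1 library per genotype gives no replicate error. Genes were called past 1.5-fold between genotypes with at least 20 UMIs over both libraries, and past 2-fold between classes the same way in both libraries with at least 20 UMIs in each. A count of 0 allows up to 3 counts.

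The members, marker lists and pathway list were chosen with earlier results of these data known. All 10 members are named. Of the pathway list, genes past 1.5-fold in cDC2-like or cDC1-like cells and the gene with the most UMIs in each role were eligible, and Cd36, Irf8, Tlr1, Tlr5, Tlr8, Slc15a4, Ly96, Myd88 and Cd14 were added after their values were seen. For each member with at least 200 UMIs, the 3 genes with the highest Pearson r of log2(CPM + 5) are given, among genes with at least 50 CPM in 1 class of each library, except for Tlr2, whose list is not reported here. Alternatives were another scaling, means over cells, classes from 20 clusters (30 principal components, scanpy 1.11.5), doublet, mitochondrial and ribosomal filters, and a stricter gate. Promoter windows came from RefSeq (GRCm38.p6) and gene positions from GENCODE. Versions were Python 3.11.15, pandas 2.3.3, scipy 1.17.1 and numpy 2.4.6. The ratio intervals were run on counts simulated with Poisson error alone, which is the error they assume. That run held no spread between cells, mice or libraries.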

Additional observations from a re-analysis of the deposited data

Results flagged for a closer look

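Results are listed here where the ratio of H2-Aa cit/cit over WT lay on opposite sides of 0 in different classes, each beyond counting error. With 1 library per genotype these differences between classes were not tested. Tlr13 was higher in H2-Aa cit/cit pDC-like cells (log2 2.55, 0.22 to 5.82, on 2 WT and 8 H2-Aa cit/cit UMIs) and lower in cDC2-like cells (−0.17, on 680 and 1217 UMIs). Unc93b1 was higher in mature DC-like cells without cDC1 genes (0.19) and lower in cDC2-like cells (−0.16) and cDC1-like cells (−0.23), all 3 within 1.5-fold. With classes from clusters the value in the mature cells was 0.06.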

How the results depend on the processing

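No paired analysis was possible because each genotype was 1 library and no test was run. Of the genotype ratios recomputed under an alternative, 354 stayed within the counting interval of the reported value, 23 left it, and 1 whose interval had left out 0 changed sign. For the class ratios these numbers were 370, 31 and 1. The genotype ratio of Unc93b1 in cDC2-like cells (−0.16) was −0.084 when scaled by the median ratio, −0.10 as a mean over cells, −0.20 without cells under 6% ribosomal UMIs and −0.12 without the cluster found in 1 library alone, an alternative chosen after seeing the data, under which Tlr7 in cDC2-like cells was 0.20. The Tlr7 ratio of cDC1-like over cDC2-like cells was −3.24 in WT as a mean over cells, and in H2-Aa cit/cit −4.72 without the highest doublet scores and −5.02 with the stricter gate, which put Tlr3 at 4.99 there. Tlr7 in Ffar2+ over Ccr2+ cells was 0.89 in H2-Aa cit/cit with classes from clusters, and 2.63 and 3.00 with the stricter gate. Of the ratios whose interval had left out 0, the sign changed with classes from clusters for Tlr11 in cDC1-like cells between genotypes (−0.029) and for Unc93b1 in WT cDC1-like over cDC2-like cells (0.017). Ratios whose interval included 0 also took both signs over the alternatives, among them Tlr3 (−0.20 to 0.12), Tlr7 (−0.66 to 0.34) and Tlr13 (−0.41 to 0.09) in cDC1-like cells between genotypes and Tlr4 in H2-Aa cit/cit cDC1-like over cDC2-like cells (−0.16 to 0.25). With at least 50 UMIs, 1218 in place of 1899 genes were past 1.5-fold in mature DC-like cells without cDC1 genes. The cause was not tested for any of these. Leaving out cells with shared barcodes, also chosen after seeing the data, moved none of 100 values beyond its interval. All 20 shares of cells rose with depth, to 31.3% for Tlr3 in WT cDC1-like cells thinned to 3000 UMIs. That setting left out 68 of the WT cDC1-like cells as too shallow. Tlr3 and Tlr12 in H2-Aa cit/cit mature DC-like cells with cDC1 genes over cDC1-like cells had no value with the stricter gate or without the highest doublet scores. No ratio is formed where a class holds 0 UMIs, as the mature cells did under these settings.

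The depth limits Tlr9 in every class, Tlr12 outside cDC1-like and pDC-like cells, and all members in macrophage-like, neutrophil-like and NK-like cells.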
